A study of Mus musculus with 30 samples.

Results

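Immediate early genes are transcribed within minutes of a stimulus without new protein synthesis, and their mRNAs are usually short-lived. Several of them encode proteins that remove other mRNAs: they bind a sequence in the 3′ untranslated region and recruit the deadenylase machinery, or they cut the transcript. Such genes are known to be switched on together with cytokine genes in stimulated cells and to shorten the life of cytokine mRNAs. The genes described here are 8 immediate early or mRNA decay genes, Ier2, Ier3, Ier5, Ier5l, Ifrd1, Btg2, Zfp36 and Zc3h12a, out of 28586 gene symbols counted in either RNA fraction. They were chosen by name from immediate early and mRNA decay genes that had been seen to change 3 h after gut surgery in these same samples, so their values at that time are a description, and no p-value is given for them. All 8 were present in the counts of both fractions.

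The study followed postoperative ileus, the loss of gut motility after abdominal surgery, in the mouse small bowel muscularis externa (ME), the muscle wall with its nerve plexus. Intestinal manipulation (IM) is the surgical handling of the bowel, and tissue was taken from naïve mice and 3, 24 or 72 h after IM (IM3h, IM24h and IM72h). Total ME RNA was sequenced from 3 naïve, 3 IM3h, 4 IM24h and 4 IM72h samples. RiboTag libraries hold mRNA pulled down with haemagglutinin-tagged RPL22, a ribosomal protein, from cells in which Sox10 drives a tamoxifen-inducible Cre, and 3 naïve, 4 IM3h, 4 IM24h and 4 IM72h libraries were used. Every RiboTag mouse and the ME mice at IM24h and IM72h carried Sox10-icre/ERT2 with the Rpl22 allele, whereas the naïve and IM3h ME mice carried Gfap-cre with that allele. In the ME fraction, the later time points can therefore not be told apart from the mouse line in comparisons with naïve or IM3h tissue. The study gives n as mice per condition for its sequencing, while the labels do not tie libraries to mice. The p-values measure the spread between libraries.

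Library totals were 3010338 to 7899551 counts for RiboTag and 6603125 to 12866014 for ME. A single symbol, AY036118, took 2.02 to 14.0% of the counts in naïve and IM3h RiboTag libraries, 22.2 to 59.2% at IM24h and 58.0 to 80.1% at IM72h, where 8814 to 11729 genes had a count. In ME it took 16.1 to 33.5% of naïve and IM3h libraries and 1.33 to 6.50% of the later ones. The fourth IM3h RiboTag library stood apart, with 15829 genes detected against 18624 to 19311 in the other three. The summed level of 8 glial markers was 1577 to 1912 CPM (counts scaled to a common library size) in naïve RiboTag and 116 to 144 CPM in naïve ME, and that of 7 smooth muscle markers was 4962 to 7574 and 22028 to 22924 CPM. Glial mRNA was thus more abundant in the pulled-down fraction, and smooth muscle mRNA was still present in it. The glial sum was 763 to 930 CPM at IM24h and ranged from 142 to 1435 CPM at IM72h. In such bulk RNA, fewer cells of a type and less RNA per cell cannot be told apart.

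Sequence features around these genes were not used in the choice, and no motif searched was common to all of them. RefSeq promoter windows on GRCm38.p6, from 250 bases before to 50 after the start, were found for 7 of the 8 genes and for 27025 genes in all (32851 windows). The cyclic AMP response element TGACGTCA was in 1 of the 7, Btg2, against 1.79% of all windows, and its short form TGACG was in 3, Ifrd1, Btg2 and Zc3h12a, against 20.8%. The AP-1 site TGANTCA was in none of the 7 and in 7.81% of all windows. A CArG box, the site of serum response factor, was in Zfp36 alone (1.63% of all windows), and an NF-kappaB site was in Ier3 alone (4.51%). Both strands were searched, and every TGACGTCA also counts as TGACG. The 200 bases before the start of the 3 genes with a full-length match are shown, 5′ to 3′ in the direction of transcription, with the matches in capitals, beside those of Ier5l, the one member called in RiboTag at 24 h, whose window held none of these motifs.
Ier3, chr17:35821513-35821712, plus strand: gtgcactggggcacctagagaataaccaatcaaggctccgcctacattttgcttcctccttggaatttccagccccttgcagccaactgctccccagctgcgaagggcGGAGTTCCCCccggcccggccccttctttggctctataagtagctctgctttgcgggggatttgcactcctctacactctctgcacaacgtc
Btg2, chr1:134079156-134079355, minus strand: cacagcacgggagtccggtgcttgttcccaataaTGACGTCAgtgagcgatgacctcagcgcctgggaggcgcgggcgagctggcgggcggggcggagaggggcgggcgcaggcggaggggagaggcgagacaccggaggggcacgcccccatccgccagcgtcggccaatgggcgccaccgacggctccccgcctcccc
Zfp36, chr7:28379229-28379428, minus strand: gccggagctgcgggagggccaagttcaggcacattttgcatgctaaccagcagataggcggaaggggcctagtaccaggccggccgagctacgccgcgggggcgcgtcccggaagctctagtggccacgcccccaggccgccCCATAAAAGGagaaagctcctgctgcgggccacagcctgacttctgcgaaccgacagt
Ier5l, chr2:30474200-30474399, minus strand: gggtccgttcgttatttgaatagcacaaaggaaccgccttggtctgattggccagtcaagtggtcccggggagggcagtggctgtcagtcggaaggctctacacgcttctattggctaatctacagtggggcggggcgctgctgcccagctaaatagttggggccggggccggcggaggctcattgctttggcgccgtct
A match is a string of letters and not evidence of binding.

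AU-rich elements, the sequences that ZFP36 proteins bind, were counted in the longest annotated 3′ untranslated region of each gene (GENCODE vM21 transcripts, 20885 genes). The core pentamer ATTTA was present 5 times in Ier3 and Btg2, 4 times in Ifrd1, 3 times in Zfp36, Zc3h12a and Ier5l, 2 times in Ier5 and not at all in Ier2, beside a median of 1 over all genes. Of all genes, 35.9% held 3 or more. Per kilobase, Ier3 held 8.16, Zfp36 3.88, Zc3h12a 3.5, Ier5l 2.39, Btg2 2.27, Ifrd1 2.23, Ier5 0.933 and Ier2 0, beside a median of 1.25. The Ifrd1 region is that of Ifrd1-201, a transcript with 3.39% of the Ifrd1 counts pooled over naïve RiboTag libraries. The heptamer TATTTAT occurred 4 times in Ier3, 3 times in Zfp36 and 1 time in Btg2, and 27.8% of all genes held at least 1. Ier3 and Zfp36 each held 2 or more, as did 10.5% of all genes. The sites are shown in 27-base windows on GRCm38 with the heptamer in capitals, since the heptamer holds the core that tristetraprolin, the product of Zfp36, binds.
Ier3 site 1, chr17:35822482-35822508, plus strand: gtctaattaaTATTTATgtatttatgt
Ier3 site 2, chr17:35822490-35822516, plus strand: aatatttatgTATTTATgtatatcctc
Ier3 site 3, chr17:35822532-35822558, plus strand: gtgtatgtaaTATTTATtctaacttat
Ier3 site 4, chr17:35822587-35822613, plus strand: gtaacacagaTATTTATtacgatttat
Btg2 site 1, chr1:134077250-134077276, minus strand: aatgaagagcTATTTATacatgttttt
Zfp36 site 1, chr7:28376967-28376993, minus strand: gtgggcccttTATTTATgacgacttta
Zfp36 site 2, chr7:28376952-28376978, minus strand: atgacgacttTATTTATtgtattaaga
Zfp36 site 3, chr7:28376927-28376953, minus strand: gattttatagTATTTATatatattggg
The first 2 windows of Ier3 overlap, as does each Zfp36 window with the next.

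Levels are given in CPM after TMM scaling over all libraries of a fraction, a scaling that corrects library totals for a few very abundant genes. Libraries within a group are listed in a fixed order that has no meaning. The IER genes come first. Ier2 encodes a nuclear protein of the immediate early response. In RiboTag it stood at 5.47, 7.42 and 4.87 CPM in naïve mice and at 58.0, 46.7, 36.7 and 20.3 CPM at IM3h. All IM3h libraries lay above all naïve ones, with the fourth the lowest. At IM24h it was at 2.88, 0, 0 and 3.62 CPM, and at IM72h a single read was counted in 1 of 4 libraries. In ME it went from 5.05, 4.98 and 4.92 CPM to 51.2, 54.6 and 46.3 CPM at IM3h, then 11.02, 12.7, 9.70 and 10.3 CPM at IM24h and 7.22, 4.78, 6.03 and 4.71 CPM at IM72h. The ME order was thus IM3h, IM24h and then IM72h, which overlapped naïve.

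Ier3 (also called IEX-1) encodes a stress-induced protein that affects cell survival. Its RiboTag levels were 32.8, 29.6 and 20.2 CPM in naïve mice and 75.9, 123, 106 and 50.9 CPM at IM3h. They were 30.2, 14.1, 15.6 and 34.3 CPM at IM24h and 8.40, 13.4, 17.5 and 0 CPM at IM72h. The IM24h libraries overlapped the naïve range, and the IM72h ones lay below it. ME levels were 59.9, 53.8 and 62.8 CPM in naïve, 190, 235 and 239 CPM at IM3h, 74.1, 86.6, 115 and 69.9 CPM at IM24h and 75.2, 83.7, 78.5 and 99.8 CPM at IM72h. Here both later groups overlapped each other and lay above naïve.

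Ier5, whose product takes part in the heat shock response, was at 30.0, 31.6 and 26.8 CPM in naïve RiboTag and 68.6, 99.8, 112 and 39.5 CPM at IM3h. It stood at 59.4, 52.6, 38.7 and 54.4 CPM at IM24h and at 43.4, 87.2, 83.9 and 124 CPM at IM72h. After TMM scaling no RiboTag library after IM came down into the naïve range, but by library totals 1 at IM3h, 2 at IM24h and 3 at IM72h lay in or below it. In ME, Ier5 was between 25.0 and 27.2 CPM in the 3 naïve libraries and at 138, 173 and 149 CPM at IM3h, 54.1, 80.0, 72.5 and 33.3 CPM at IM24h and 77.9, 64.1, 71.6 and 50.4 CPM at IM72h. The groups after IM were above naïve there too.

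Ier5l, a paralogue of Ier5, had a different course in the 2 fractions. In RiboTag it rested at 3.18, 4.79 and 10.7 CPM, and at IM3h it stood at 72.2, 95.9, 102 and 138 CPM. It was still at 42.5, 130, 130 and 145 CPM at IM24h and at 21.5, 24.7, 7.38 and 19.9 CPM at IM72h. The fourth IM3h library, low for Ier2, Ier3, Ier5, Ifrd1, Btg2 and Zfp36, was the highest for Ier5l and Zc3h12a. In ME, Ier5l was at 4.09, 3.32 and 4.56 CPM in naïve and only 6.71, 11.5 and 11.2 CPM at IM3h, before 34.1, 33.1, 28.6 and 20.9 CPM at IM24h and 24.4, 25.1, 23.9 and 14.7 CPM at IM72h. Its ME levels at the later times thus all exceeded those at IM3h, the reverse of the order of Ier2, Ier3, Ifrd1 and Btg2. The ME mice at IM3h and at the later times were also of different lines.

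Ifrd1 (also called Tis7) encodes a transcriptional co-regulator. It was at 26.1, 27.2 and 20.9 CPM in naïve RiboTag and at 516, 518, 398 and 224 CPM at IM3h. At IM24h it stood at 26.0, 66.7, 106 and 74.6 CPM, and at IM72h at 0, 2.17, 35.0 and 60.3 CPM, a spread from below to above the naïve range. ME levels were 38.3, 45.9 and 61.4 CPM in naïve, 792, 883 and 711 CPM at IM3h, 182, 144, 162 and 80.0 CPM at IM24h and 86.2, 105, 102 and 61.6 CPM at IM72h. The transcript Ifrd1-202 held 92.6% of the Ifrd1 counts pooled over naïve RiboTag libraries and 80.8% at IM3h, while Ifrd1-206 held 1.53 and 9.71%. These shares are estimates from reads of 3′ ends, and Ifrd1 overlaps other annotated genes, including the antisense Gm7008.

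Btg2 (also called Tis21) encodes an antiproliferative protein that stimulates deadenylation by the CCR4-NOT complex. RiboTag levels were 14.7, 13.2 and 13.5 CPM in naïve, 106, 132, 134 and 40.9 CPM at IM3h, and 17.4, 5.22, 10.4 and 40.5 CPM at IM24h. At IM72h, Btg2 was counted in 1 of 4 libraries, at 39.0 CPM. In ME it was at 25.6, 20.6 and 25.1 CPM in naïve, 171, 179 and 143 CPM at IM3h, 51.5, 53.6, 56.2 and 32.8 CPM at IM24h and 35.7, 32.7, 34.4 and 30.2 CPM at IM72h. All ME groups after IM were above naïve, and the later pair overlapped each other.

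Zfp36 encodes tristetraprolin, an AU-rich element binding protein, which brings CCR4-NOT to cytokine mRNAs. It was at 10.2, 7.76 and 12.1 CPM in naïve RiboTag, 71.3, 147, 129 and 47.4 CPM at IM3h, 22.8, 6.83, 17.4 and 30.1 CPM at IM24h and 2.33, 51.2, 12.0 and 76.0 CPM at IM72h. In ME, its levels were 18.8, 22.4 and 21.1 CPM in naïve, 110, 192 and 111 CPM at IM3h, 33.4, 47.1, 27.6 and 24.7 CPM at IM24h and 38.9, 36.4, 38.7 and 33.5 CPM at IM72h. The RiboTag values at IM24h and IM72h overlapped naïve and the ME values did not. Zfp36 overlaps the antisense gene Gm44710, and the strand setting of the counting is not given in the sources used here.

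Zc3h12a encodes Regnase-1, an endonuclease that cuts stem-loops in cytokine mRNAs. In RiboTag it was at 0.636, 4.57 and 3.44 CPM in naïve, 6.12, 5.33, 3.77 and 13.8 CPM at IM3h, and 1.88, 0, 0 and 0 CPM at IM24h. It had no count in any IM72h library, against 74 counts over the naïve ones. The limit for IM72h was set at 3 counts over the group, with the naïve counts taken as exact. On that footing Zc3h12a was at least 7.08-fold lower than in naïve RiboTag after TMM scaling, and at least 23.1-fold lower by library totals. These bounds cover counting error at IM72h only. In ME it was at 5.77, 2.28 and 2.88 CPM in naïve, 12.9, 15.01 and 14.9 CPM at IM3h, 10.2, 16.8, 20.6 and 9.17 CPM at IM24h and 6.62, 7.06, 7.51 and 7.81 CPM at IM72h. The ME libraries at IM3h and IM24h overlapped each other and lay above those at IM72h, which lay above naïve.

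**Figure D1:**
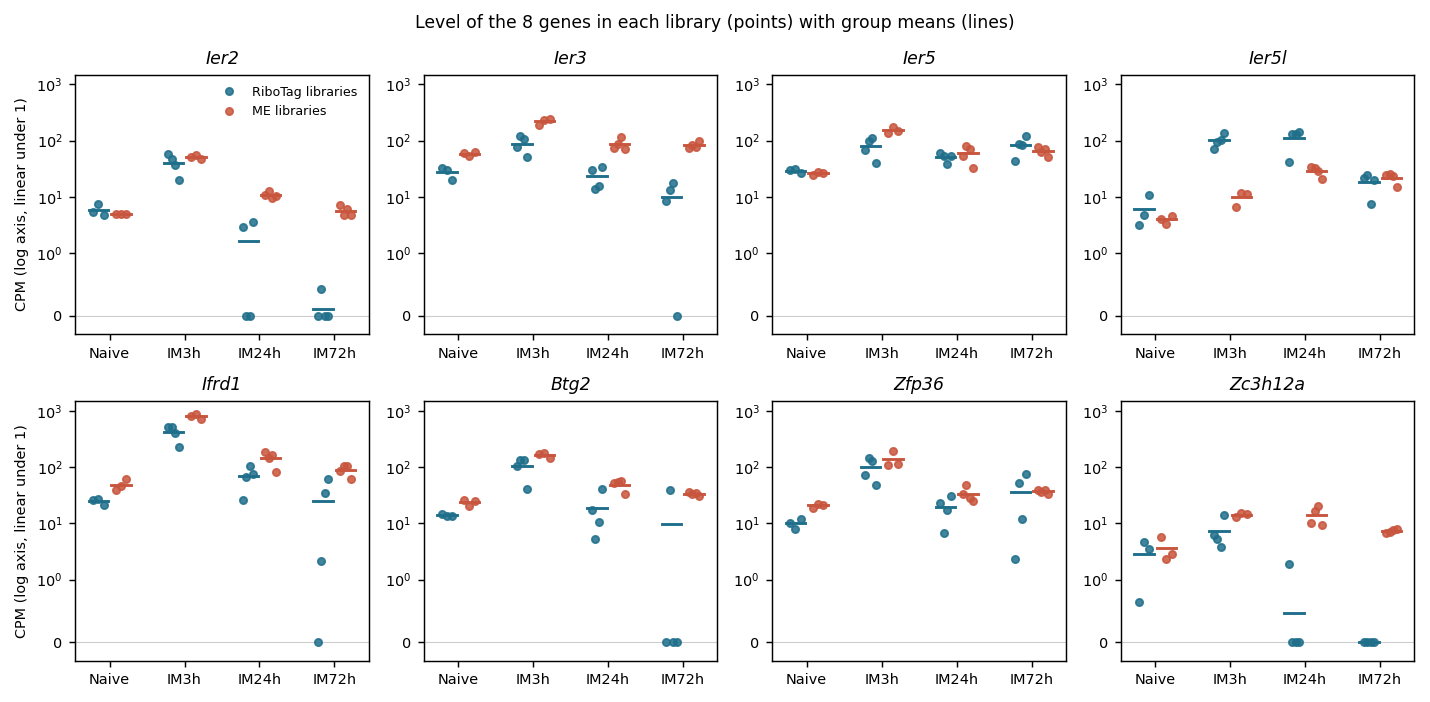
CPM (log axis, linear under 1) of the 8 genes in every library, by time after intestinal manipulation, with RiboTag and ME libraries as separate points and the group means as lines. The highest mean of Ier2, Ier3, Ifrd1, Btg2 and Zfp36 is at IM3h in both fractions, while Ier5l stays at 42.5 to 145 CPM at IM24h in RiboTag and reaches its highest ME values, 20.9 to 34.1 CPM, at IM24h.

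The first comparison is of IM3h with naïve mice, the early phase of the injury and the contrast the genes were selected on. The RiboTag log2 fold changes were 2.81 ± 0.41 (SE, 4 against 3 libraries) for Ier2, 1.74 ± 0.34 for Ier3, 1.49 ± 0.35 for Ier5, 4.08 ± 0.44 for Ier5l, 4.11 ± 0.35 for Ifrd1, 2.94 ± 0.40 for Btg2, 3.35 ± 0.43 for Zfp36 and 1.38 ± 0.80 for Zc3h12a. In ME they were 3.41 ± 0.15 (3 against 3 libraries), 1.98 ± 0.12, 2.61 ± 0.12, 1.35 ± 0.29, 4.10 ± 0.19, 2.85 ± 0.13, 2.80 ± 0.22 and 1.999 ± 0.31 in the same order. Ifrd1 had nearly the same fold change in both fractions, Ier5 a smaller one in RiboTag and Ier5l a larger one, although the difference between fractions was not tested. This contrast chose the genes, so that 7 of 8 passed an adjusted p of 0.05 in RiboTag and 8 of 8 in ME is a property of the choice and is no test of them. In one fit over all RiboTag groups the 7 were 1. Of all genes, 8.86% of 16053 tested in RiboTag and 19.3% of 15333 in ME passed as higher.

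Other genes of the pathway were tested in the same fits, 96 in all on 12 lists drawn up from textbook roles: 75 decay factors and relatives of the members, 15 target mRNAs and 6 kinase or phosphatase subunits that act on ZFP36 proteins. At IM3h, 25 of the 84 tested in RiboTag passed, 23 higher and 2 lower, beside 8.86 and 4.44% of all genes. In ME, 39 of 87 passed, 31 higher and 8 lower, beside 19.3 and 13.4%. Among the decay factors and relatives alone, 16 of 70 were higher and 2 lower in RiboTag, and 18 of 70 were higher and 8 lower in ME. With library totals these became 13 higher and 2 lower in RiboTag and 10 higher and 14 lower in ME, so the balance in ME turned with the scaling. Their median log2 fold change was 0.34 in RiboTag and 0.18 in ME, against -0.04 and 0.00 over all genes tested. With all RiboTag groups in one fit, which shares its spread with the IM24h and IM72h libraries, the 25 RiboTag list calls became 0, so the RiboTag calls of list genes that follow hold in the fit of these 2 groups alone. The relatives of Btg2 are antiproliferative proteins that also bind deadenylases. In RiboTag, Tob1 (2.27 ± 0.44, adjusted p = 0.00568), Btg1 (1.67 ± 0.28, adjusted p = 0.00237) and Tob2 (1.28 ± 0.26, adjusted p = 0.0069) rose and Btg3 (1.08 ± 0.56, adjusted p = 0.247) did not pass. In ME all 4 tested relatives rose, led by Btg1 at 2.24 ± 0.17 (adjusted p = 8.44e-06).

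Of the relatives of Zfp36, Zfp36l2 rose in both fractions, by 1.37 ± 0.32 on the log2 scale in RiboTag (adjusted p = 0.0139) and 1.03 ± 0.13 in ME (adjusted p = 0.000228). Zfp36l1 rose in ME, by 0.78 ± 0.13 (adjusted p = 0.0014), and its RiboTag value of 0.37 ± 0.22 did not pass. Among the partners of Zc3h12a, Rc3h1, which encodes Roquin-1, a protein that recognises the same kind of stem-loop, rose by 1.73 ± 0.33 in RiboTag (adjusted p = 0.00546) and by 0.98 ± 0.13 in ME (adjusted p = 0.000348). N4bp1, a relative with a similar nuclease domain, rose in ME by 0.57 ± 0.16 (adjusted p = 0.019). Ifrd2, the only relative of Ifrd1, was too rare to be tested.

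In the core machinery, none of the 14 deadenylase subunits passed in RiboTag at IM3h, and in ME 4 were higher and 4 lower after TMM scaling, or 1 higher and 5 lower with library totals. Of 15 decapping and 5′ to 3′ decay genes, 3 rose and 1 fell in RiboTag, and 2 rose in ME. In ME library totals gave 1 higher and 2 lower in their place. After TMM scaling, 8.86% of all genes were higher and 4.44% lower in RiboTag, and 19.3 and 13.4% in ME. The decapping activator Patl1 rose by 2.36 ± 0.31 in RiboTag (adjusted p = 0.000542) and by 1.42 ± 0.16 in ME (adjusted p = 0.000107), and the decapping enzyme Dcp2 rose by 1.39 ± 0.28 (adjusted p = 0.00752) and 0.57 ± 0.19 (adjusted p = 0.0408). Ddx6, the helicase of this pathway, also rose in RiboTag (adjusted p = 0.00241, higher in 4 of 4 libraries), and Lsm6, a subunit of the decapping activator ring, fell (24.7 to 33.2 CPM in naïve and 8.83 to 12.4 CPM at IM3h, adjusted p = 0.0184; named after its values were seen). With library totals the ME calls of Dcp2 (0.33, adjusted p = 0.25), Tob1 (0.59, adjusted p = 0.105) and N4bp1 (0.33, adjusted p = 0.172) were lost. The exosome nuclease Dis3 rose by 1.65 ± 0.30 in RiboTag (adjusted p = 0.00415) and 0.96 ± 0.17 in ME (adjusted p = 0.00201). In RiboTag 3 of 14 exosome and SKI complex genes were higher and 0 lower, and with library totals 1 was higher. In ME Dis3 was the one call higher among the 14 tested, and 3 fell, among them Exosc4 (-0.68 ± 0.21) and Skiv2l (-0.62 ± 0.19). With library totals 5 fell in ME. Of the other AU-rich element binding proteins, Tial1 (1.69 ± 0.36), Elavl1 (1.66 ± 0.37) and Hnrnpd (1.33 ± 0.24) rose in RiboTag and Tia1 fell by 1.44 ± 0.25.

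Of 15 listed mRNAs that ZFP36 or Regnase-1 are known to remove, 8 could be tested in RiboTag and 11 in ME. In RiboTag, 6 of the 8 rose, among them Ccl2, a monocyte chemokine (0.342 to 2.73 CPM in naïve and 42.0 to 229 CPM at IM3h), Cxcl2 (0 to 3.69 and 32.4 to 61.0 CPM) and Cxcl1 (0.119 to 0.890 and 8.08 to 21.4 CPM). In ME, 10 of the 11 rose and Nos2, at 8 to 22 counts in naïve and 1 to 11 at IM3h, did not pass (named after its values were seen). The risers were led by Ccl2 (0.623 to 4.20 and 199 to 441 CPM), Cxcl1 (0.240 to 0.623 and 40.9 to 70.4 CPM) and Cxcl2 (0 to 1.68 and 39.9 to 82.6 CPM). The summed level of 8 monocyte and neutrophil markers was 7.76 to 11.6 CPM in naïve and 7.55 to 18.7 CPM at IM3h in RiboTag, and 10.7 to 12.2 and 37.5 to 52.0 CPM in ME. Fibroblast markers summed to 728 to 995 CPM in naïve and 307 to 436 CPM at IM3h in RiboTag, and to 2204 to 2330 and 1042 to 1222 CPM in ME. Mesothelial markers summed to 84.5 to 239 and 7.07 to 68.5 CPM in RiboTag and to 86.3 to 124 and 1.73 to 11.4 CPM in ME, and smooth muscle markers to 1987 to 5113 CPM in RiboTag and 16220 to 19094 CPM in ME at IM3h. The part of these cell types in the IM3h values of members and list genes was not tested.

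The comparison of IM24h with naïve mice covers the inflammatory phase and shares its naïve libraries with the contrast the genes were chosen by. In RiboTag, Ier5l was the only member that rose, by 4.20 ± 0.62 on the log2 scale (adjusted p = 0.0206, higher in 4 of 4 libraries), beside 0.366% of 15304 genes called higher and 0.131% called lower. The call was lost when any of 5 of the 7 libraries was left out, with an adjusted p of 0.0767 to 0.170, and when libraries were scaled by their totals (3.11, adjusted p = 0.214). With both libraries of more than 50% AY036118 left out, the value was 3.94 (adjusted p = 0.0351). In the same RiboTag libraries, monocyte and neutrophil markers summed to 54.7 to 138 CPM against 7.76 to 11.6 CPM in naïve ones, and resident macrophage markers to 126 to 259 against 81.3 to 162 CPM. Their part in the Ier5l result was not tested. Ifrd1 (1.504 ± 0.51, adjusted p = 0.185) and Ier5 (0.85 ± 0.44, adjusted p = 0.448) were above naïve in the libraries compared after scaling over these 2 groups, without passing. Ifrd1 passed when the first IM24h library, its lowest, was left out (1.80, adjusted p = 0.0431). With library totals Ifrd1 was at 0.38 and Ier5 at 0.0031, where the median of all genes tested moved from -0.11 to -0.96. Zfp36 (0.999 ± 0.81), Btg2 (0.47 ± 0.83), Ier3 (-0.16 ± 0.60), Ier2 (-1.74 ± 1.65) and Zc3h12a (-2.36 ± 1.83) did not pass either, with adjusted p between 0.672 and 0.946. None of the 83 list genes tested in RiboTag passed at IM24h by edgeR, and 5 did by DESeq2.

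In ME at IM24h, 6 of the 8 members rose, beside 15.6% of 16328 genes called higher. Ier5l rose by 2.83 ± 0.26 (adjusted p = 9.85e-05), Zc3h12a by 1.91 ± 0.42 (adjusted p = 0.00753), Ifrd1 by 1.52 ± 0.28 (adjusted p = 0.00283), Ier5 by 1.16 ± 0.27 (adjusted p = 0.00947), Ier2 by 1.11 ± 0.27 (adjusted p = 0.0124) and Btg2 by 1.005 ± 0.21 (adjusted p = 0.00542). Ier3 (0.53 ± 0.19, adjusted p = 0.0586) and Zfp36 (0.66 ± 0.24, adjusted p = 0.0613) did not pass in the fit of these 2 groups. Both passed without the fourth IM24h library (0.62 and 0.77, adjusted p = 0.0206 each), with all ME groups in one fit (adjusted p = 0.0208 and 0.0314) and with scaling by library totals (1.17, adjusted p = 0.00185, and 1.295, adjusted p = 0.0015), and Ier3 passed by DESeq2 (adjusted p = 0.043). Scaling by library totals moved the median of all genes tested from 0.02 to 0.66 and the share of calls that were higher from 53.9 to 89.7%. Ier2 no longer passed without the first or the third naïve library, at an adjusted p of 0.0611 and 0.0615. Monocyte and neutrophil markers summed to 182 to 358 CPM in these libraries against 10.7 to 12.2 CPM in naïve ones, and smooth muscle markers to 3248 to 10668 against 22028 to 22924 CPM. The fourth library had the lowest ME level at this time of Ier3, Ier5, Ier5l, Ifrd1, Btg2, Zfp36 and Zc3h12a. The part of these cell types in the result was not tested.

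Of the 87 list genes tested in ME at IM24h, 30 were higher and 6 lower, beside 15.6 and 13.4% of all genes. Zfp36l1 (1.17 ± 0.18, adjusted p = 0.0011), Btg1 (1.37 ± 0.26, adjusted p = 0.00329) and N4bp1 (0.79 ± 0.18, adjusted p = 0.00952) were the relatives that rose. The target list held 10 of the 30 higher calls, of 11 targets tested, with Ccl2 at 181 to 536 CPM. Without the first or the third naïve library the 36 calls became 22, and with scaling by library totals they became 57, of which 56 were higher and 1 lower.

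The comparison of IM72h with naïve mice covers the recovery phase. In RiboTag no member was higher (0 of 7 tested, beside 1.05% of 13572 genes). Ier2 had 1 read over 4 libraries against 149 over the 3 naïve ones, and it passed the filter on low counts through the naïve libraries alone, so its call is no support for a fall. The counts give a naïve to IM72h ratio of 42.8 after TMM scaling (95% exact counting interval 7.56 to 1700.66) and of 139.8 by library totals (24.7 to 5560). The fit gave an adjusted p of 0.0141, where 15.1% of genes were called lower, and the call was lost without a filter on low counts (adjusted p = 0.153) and with all RiboTag groups in one fit (adjusted p = 0.0582). Zfp36 (1.86 ± 1.37), Ier5l (1.599 ± 1.44), Ier5 (1.58 ± 0.72), Ifrd1 (0.08 ± 1.64), Btg2 (-0.53 ± 2.20) and Ier3 (-1.41 ± 1.55) had adjusted p between 0.233 and 0.991. The Btg2 value rests on the second library, the only one with a count. Without it the group is at 0, and the lower call that then results (adjusted p = 0.019) is fixed by the removal. With library totals Zfp36 was at 0.19, Ier5l at -0.061, Ier5 at -0.21 and Ifrd1 at -1.87, where the median of all genes tested moved from -0.40 to -2.13. These libraries held 58.0 to 80.1% AY036118, monocyte and neutrophil markers at 15.7 to 147 CPM and resident macrophage markers at 210 to 463 CPM. The part of these in the values was not tested. Of 78 list genes tested, none was called higher. Cnot10, Zc3h12c, Lsm4, Patl1, Exosc8 and Mapkapk3 were called lower, with 0 to 3 reads over the IM72h libraries, so they too passed the filter through the naïve libraries alone. With no filter the 6 calls became 0, and they ranged from 2 to 15 when 1 library was left out.

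In ME at IM72h, 7 of 8 members were higher, beside 29.3% of 16592 genes. Ier5l remained highest in fold change at 2.34 ± 0.24 (adjusted p = 1.53e-05), followed by Ier5 at 1.22 ± 0.16 (adjusted p = 7.85e-05). Zc3h12a (0.85 ± 0.29, adjusted p = 0.0256), Ifrd1 (0.76 ± 0.21, adjusted p = 0.00832), Zfp36 (0.73 ± 0.13, adjusted p = 0.000621), Ier3 (0.42 ± 0.13, adjusted p = 0.0152) and Btg2 (0.38 ± 0.13, adjusted p = 0.0251) rose by less than 2-fold after TMM scaling. Ier2, at 0.09 ± 0.24 (adjusted p = 0.775), did not pass. With library totals Zc3h12a was at 1.44, Ifrd1 at 1.36, Zfp36 at 1.33, Ier3 at 1.01, Btg2 at 0.97 and Ier2 at 0.68, where Ier2 passed (adjusted p = 0.0329). That scaling moved the median of all genes tested from 0.02 to 0.62 and the share of calls that were higher from 50.9 to 81.2%. The Zc3h12a and Btg2 calls were each lost when 1 of 3 libraries was left out, at an adjusted p of 0.0510 to 0.105 and 0.0568 to 0.0767. The Btg2 call was also lost with all ME groups in one fit (0.41, adjusted p = 0.0641).

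After TMM scaling 28 of 87 list genes were higher and 30 lower at this time, beside 29.3 and 28.3% of all genes, and with library totals 46 were higher and 7 lower. Several relatives fell after TMM scaling. Zfp36l2 fell by 1.47 ± 0.15 (adjusted p = 1.88e-05), Zfp36l1 by 0.28 ± 0.11 (adjusted p = 0.0494), Zc3h12c by 1.77 ± 0.32 (adjusted p = 0.000752), Zc3h12b by 1.31 ± 0.37 (adjusted p = 0.0112) and Rc3h1 by 0.63 ± 0.14 (adjusted p = 0.00298). With library totals Zfp36l1 turned to 0.33 (adjusted p = 0.0637), and the calls of Rc3h1 (-0.01, adjusted p = 0.959) and Zc3h12b (-0.73, adjusted p = 0.119) were lost. Btg1 was still higher, at 0.82 ± 0.16 (adjusted p = 0.00144). Among other AU-rich element binding proteins 5 of 8 fell after TMM scaling and 2 rose, with library totals 3 fell and 3 rose, and the largest falls after TMM scaling were those of Elavl2 (-1.45 ± 0.27) and Elavl4 (-1.41 ± 0.11), both neuronal RNA-binding proteins. Resident macrophage markers summed to 773 to 1086 CPM here against 147 to 153 CPM in naïve ME, and fibroblast markers to 4094 to 4652 against 2204 to 2330 CPM. Their part was not tested.

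**Figure D2:**
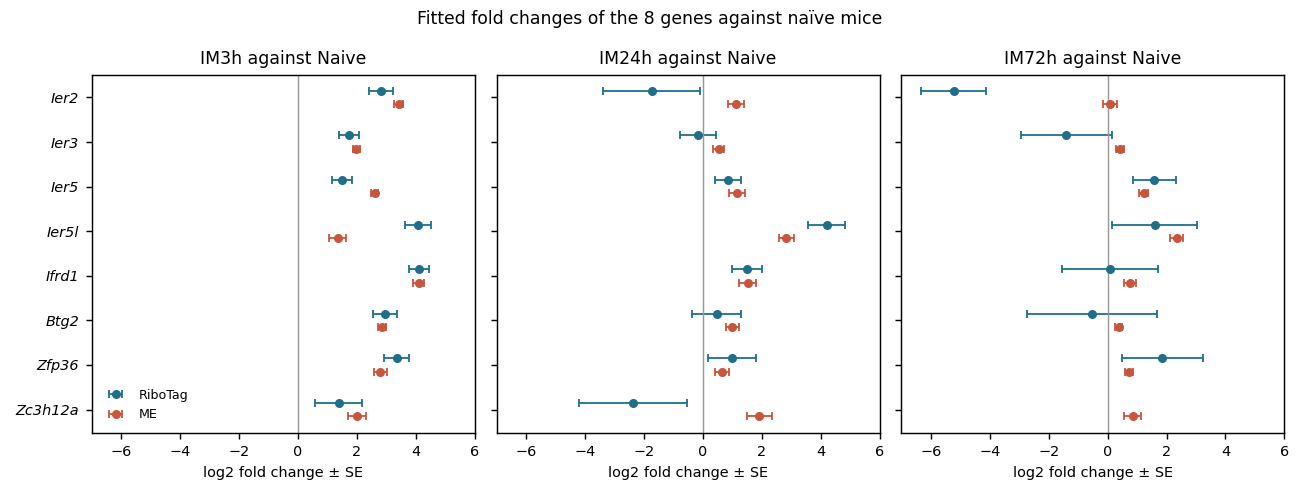
Fitted log2 fold change against naïve mice (horizontal axis) with its SE for the 8 genes at IM3h, IM24h and IM72h, RiboTag and ME as separate points. The RiboTag SE widens from 0.34 to 0.80 at IM3h to 0.72 to 2.20 at IM72h, and Zc3h12a was not tested in RiboTag at IM72h.

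**Figure D3:**
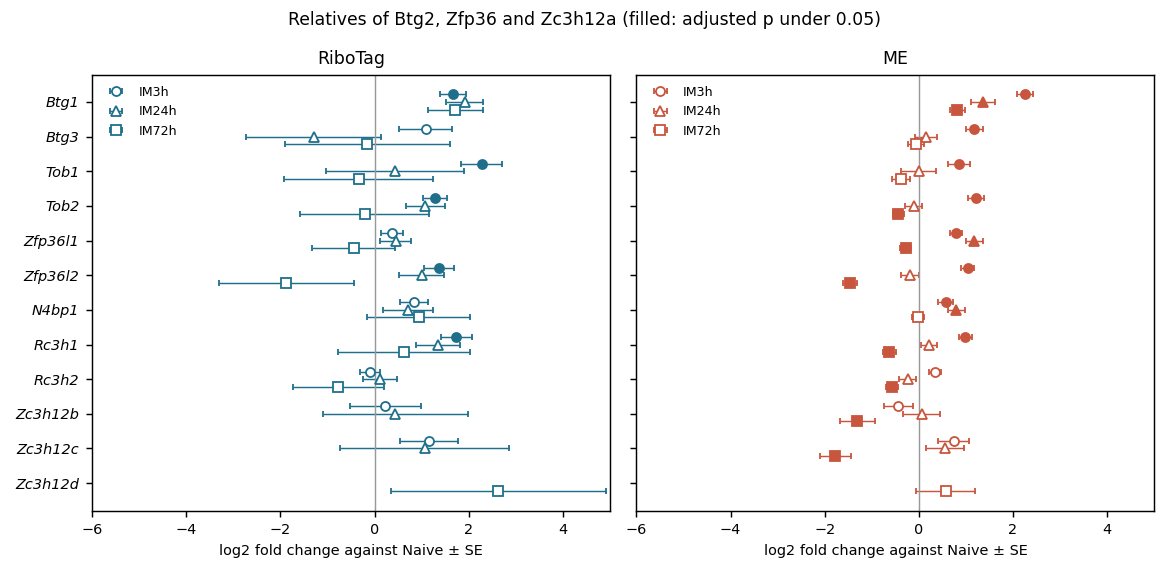
Fitted log2 fold change against naïve mice (horizontal axis) with its SE for family relatives that are not among the 8 genes, by time (circle, triangle, square). Filled points passed an adjusted p of 0.05 and genes with no count in a group compared are left out. In ME, Zfp36l2 goes from 1.03 at IM3h to -1.47 at IM72h, while Btg1 stays above 0 at every time.

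The comparison of IM72h with IM24h shares no library with the contrast the genes were chosen by, and both ME groups carried the same alleles. In ME, 4 of 8 members fell, beside 19.9% of 16281 genes called lower and 18.6% called higher. Zc3h12a fell by 1.06 ± 0.28 (adjusted p = 0.0111), Ier2 by 1.03 ± 0.24 (adjusted p = 0.00595), Ifrd1 by 0.77 ± 0.25 (adjusted p = 0.03) and Btg2 by 0.64 ± 0.17 (adjusted p = 0.0143). With 1 library left out, 3 to 5 members were called. The libraries did not overlap for Ier2 and Zc3h12a and did for Ifrd1 and Btg2. Over all 16281 genes, the IM72h libraries all lay below those at IM24h for 3008 and all above for 3346. Smooth muscle markers summed to 3248 to 10668 CPM at IM24h and 12692 to 21255 CPM at IM72h, and those of monocytes and neutrophils to 182 to 358 and 100.2 to 142 CPM. Resident macrophage markers summed to 348 to 404 and 773 to 1086 CPM, and those of fibroblasts to 1448 to 3023 and 4094 to 4652 CPM. Their part in these falls was not tested. Ier5l (-0.50 ± 0.21, adjusted p = 0.0878), Ier3 (-0.13 ± 0.18), Ier5 (0.05 ± 0.25) and Zfp36 (0.06 ± 0.20) did not pass, with adjusted p of 0.604 to 0.897 for the last 3. Of 87 list genes, 34 fell and 8 rose, among them both tested Zfp36 relatives lower, Zfp36l1 by 1.46 ± 0.16 (adjusted p = 8.31e-05) and Zfp36l2 by 1.28 ± 0.17 (adjusted p = 0.000219). In the same comparison 9 of 11 target mRNAs fell, led by Cxcl2 (12.8 to 114 CPM at IM24h and 0.471 to 3.96 CPM at IM72h).

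In RiboTag, IM72h against IM24h gave no call, 0% of 9344 genes tested by edgeR, and 139 genes higher and 451 lower had an unadjusted p under 0.05. None of the 6 members tested passed by edgeR or DESeq2. Ier5l had the smallest unadjusted p, 0.00589, with -2.53 ± 0.83 (adjusted p = 0.277) and all IM72h libraries below those at IM24h. All IM72h libraries lay below in 716 of the 9344 genes. With all RiboTag groups in one fit, 1 member passed.

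Genes whose pattern was most like that of the 8 were found by the correlation of log2 CPM with the mean of their standardised levels, among about as many genes in both fractions, 17930 and 17919. Over 15 RiboTag libraries these were Ahnak (Pearson r = 0.97), Pakap (0.96), Mt2 (0.96), Rock2 (0.95) and Ccn1 (0.93). Over 14 ME libraries they were Trib1 (0.99), Tfrc (0.98), Icam1 (0.98), Ep400 (0.98) and Mcl1 (0.98). The libraries share time points and depth, so these correlations describe a shared time course and carry no p. Ranking by Spearman's rho kept 1 of the 5 in RiboTag and 0 of the 5 in ME.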

How the data were processed

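Libraries were made by the submitters from 3′ mRNA ends (QuantSeq), trimmed with cutadapt and aligned with STAR to mm10, with Partek Flow giving estimated counts per Ensembl transcript, per the paper's methods and the submitters' processing notes. The deposited tables hold these expected counts (not all whole numbers). They list features with a total of 10 or more. The deposited tables of the authors' own comparisons with naïve mice (fold changes and p-values) were not used. Here the RiboTag transcripts were summed per gene symbol, the ME gene table was used as given, and sums were rounded. The 3 naïve RiboTag libraries held identical values in the 3 RiboTag tables over the transcripts these share, whereas the labels name 4 naïve samples, and the fourth is not analysed here. Groups came from the group cell of each library.

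Each comparison was fitted with edgeR 4.0.16 (R 4.3.3; TMM, filterByExpr, glmQLFit and glmQLFTest, two-sided) on its 2 groups, with Benjamini-Hochberg adjustment over all genes tested and a threshold of 0.05. The SE is the absolute log2 fold change divided by the root of the F statistic. RiboTag IM72h and IM24h were compared in the joined tables. DESeq2 1.42.0 was an alternative, beside library-total scaling, no low-count filter, one fit over all groups, AY036118 left out, an unadjusted p under 0.05 with more than 2-fold, and each library left out. The report gives the range of library totals, and its counting intervals cover counting error only.

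The 8 genes, the lists and the tests were chosen with earlier results of these data known. Named genes were the members and, per list and comparison, called genes among the 3 largest changes. Where a list had under 4 other genes, any could be named. Promoters came from RefSeq (GRCm38.p6) and untranslated regions from GENCODE vM21.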

Additional observations from a re-analysis of the deposited data

Results flagged for a closer look

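Among 39 sets of 4 libraries (1 gene in 1 group), a library stood apart 5 times (its gap to the nearest library, as a share of the group's range, was over Dixon's 95% critical value). By chance about 1 in 20 groups is so, but 3 of the 5 are groups with a single library above 0, where the share is 1.0 whatever the count, so the number of cases is not set against chance. Ier5l was low in the first RiboTag library at IM24h (42.5 CPM, next 130 CPM, share 0.851) and in the fourth ME library at IM72h (14.7 CPM, next 23.9 CPM, share 0.881). In RiboTag, Ier2 (0.434 CPM) and Btg2 (39.0 CPM) at IM72h were counted in the second library alone, a share of 1.0 each. Zc3h12a at IM24h was counted in the first library alone (1.88 CPM, share 1.0).

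In 3 cases every library after IM lay on opposite sides of naïve in the fractions. Ier2 at IM24h had a log2 fold change of -1.74 in RiboTag and 1.11 in ME, and Ier3 at IM72h had -1.41 and 0.42. Zc3h12a at IM72h had no count in any RiboTag library, below naïve, and an ME log2 fold change of 0.85. These differences between fractions were not tested, and neither RiboTag fold change passed on its own. Over all genes tested, every RiboTag library lay below naïve for 2177 of 15304 at IM24h and 3820 of 13572 at IM72h. In ME every library lay above naïve for 3297 of 16328 and 4984 of 16592. Genes with both at once were not counted, and the naïve and later ME mice were of different lines.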

How the results depend on the processing

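Of the members' log2 fold changes against naïve mice under the alternatives, 505 kept their direction and side of the threshold. A further 27 lost and 10 gained the call, and 13 reversed, none of the reversed ones called in either fit. The tally includes IM3h, the contrast the genes were chosen by, so it is no measure of how well the later values hold. It leaves out IM72h against IM24h. Scaling by the library total turned Btg2 in RiboTag at IM24h to -0.25, and at IM72h Ier5 to -0.21, Ier5l to -0.061 and Ifrd1 to -1.87. Ifrd1 at IM72h also turned to -0.019 with no low-count filter and to -0.0044 with AY036118 left out. Leaving out 1 library gave, in RiboTag, -0.40 to 0.023 for Ier3 (0.0033 without the third) and -0.27 to 0.79 for Btg2 at IM24h and -0.83 to 0.51 for Ifrd1 at IM72h (-0.32 without the third IM72h and -0.09 without the third naïve library), and in ME -0.057 to 0.17 for Ier2 at IM72h.

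With all groups in one fit, RiboTag members higher at IM3h numbered 1 in place of 7, list genes called 0 in place of 25 at IM3h and 3 in place of 6 at IM72h, and members called between IM72h and IM24h 1 in place of 0. Members higher in RiboTag at IM24h numbered 0 with library totals. The list calls were 5 with DESeq2 and 2 with no filter in RiboTag at IM24h, 0 with no filter and 3 with AY036118 left out at IM72h, and 57 with library totals in ME at IM24h. At an unadjusted p under 0.05 and more than 2-fold, RiboTag at IM24h gave 2 members and 10 list genes, ME gave 19 list genes at IM3h, 15 at IM24h and 17 with 2 members at IM72h, and IM72h against IM24h gave 1 member in RiboTag and 2 in ME. Leaving out 1 library gave 0 to 2 members and 0 to 3 list genes in RiboTag at IM24h, 2 to 15 list genes at IM72h, 17 to 30 at IM3h, and 22 to 40 in ME at IM24h. At IM3h, library totals moved the all-gene median to -0.24 in RiboTag and -0.26 in ME and the share of calls that were higher from 66.6 to 51.2% and from 59 to 33.9%. The RiboTag median moved to -0.96 at IM24h and -2.13 at IM72h. The cause of these shifts was not tested.

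No paired analysis was possible because the library names carry no replicate number from the labels. The alternative without both IM24h libraries of over 50% AY036118 was added after seeing the data.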
